A study of Homo sapiens with 18 samples.

Results

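Acute-phase and NF-kB inflammatory genes were followed through knockdown of OFD1 in 3 human pancreatic cancer cell lines. They comprised 10 of the 26668 gene symbols in the expression table, namely SAA1, SLPI, LCN2, IL32, CXCL8, CXCL1, CCL20, IL6, NFKBIA and C3. These genes were picked from earlier results of the same data, in which SAA1 and SLPI headed the rises in PANC1 and IL32 was among the largest rises in MIA PaCa-2. Their differences in PANC1 and MIA PaCa-2 are therefore given as a description without a test, and they were tested in PATU8988T, a line that the choice did not use.

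RNA-seq was available for 18 libraries, 3 control and 3 OFD1 knockdown libraries in each of PANC1, MIA PaCa-2 and PATU8988T. OFD1 is a protein of centrosomes and centriolar satellites. The knockdown samples are labelled shOFD1 and were collected 72 h after doxycycline induced the shRNA, whereas the control samples are labelled shControl in their titles, WT as genotype and no treatment. The study's methods describe Tet-on-shOFD1 cells that received DMSO or doxycycline, so whether the controls carried the OFD1 shRNA was not settled. All knockdown cultures but no control cultures received doxycycline, and the effects of the drug and of the shRNA cannot be told apart. The series text gives day 0 for wild-type cells and day 3 for knockdown, so time in culture cannot be told apart from the knockdown either. The shRNA used for sequencing is not named, and although the methods say of assays in general that they were repeated independently, neither they nor the labels say this of the RNA-seq libraries, so p-values measure the spread between these libraries, which may be technical. Replicates 2 and 3 of both PATU8988T groups carry the line names PaTu 8989T and PaTu 8990T in other label fields, and their titles, which name PaTu 8988T, were followed.

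NF-kB is a family of transcription factors held in the cytoplasm by IkB proteins until a kinase complex, switched on by cytokine or pattern-recognition receptors, marks the IkB proteins for destruction. The factors then enter the nucleus, bind short kB sites and switch on chemokines, cytokines, survival genes and their own inhibitor NFKBIA. Acute-phase proteins such as serum amyloid A, made mainly in the liver during inflammation, are controlled by NF-kB together with C/EBP factors and STAT3, the latter acting downstream of IL6. Pancreatic cancer cells are known to make several of these chemokines and secreted defence proteins themselves.

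The depth was similar over the libraries, with 32486479 to 39797537 reads counted per library and a median of 36927700. Expression is given as FPKM, a read count divided by the length of the gene and by the reads of the library. The study's threshold asks for a change of more than 2-fold in either direction with an adjusted p under 0.05. OFD1 had 5.5, 5.12 and 5.67 FPKM in the PANC1 controls and 2.80, 2.27 and 2.58 FPKM in the knockdown libraries, a log2 fold change of -1.07 (SE 0.0901, limma, adjusted p = 2.70e-06), which was -0.99 and thus short of the 2-fold limit without knockdown replicate 2. The log2 fold change of OFD1 was -1.10 in PATU8988T (SE 0.103, adjusted p = 5.47e-05) and -0.61 in MIA PaCa-2 (SE 0.159, adjusted p = 0.0232), where it was -0.76 without control replicate 2. That library stood apart, with a median absolute log2 difference of 0.393 from the mean of the other controls over its genes, against 0.0513 to 0.203 for the other 17 libraries and their own groups. For OFD1 in this line, the adjusted p went from 8.76e-05 to 0.0896 over the alternatives.

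Marker lists of 5 cell types were read beside these genes. The summed level of 7 epithelial markers went from 1001–1024 to 961–980 FPKM in PANC1, from 1621–2206 to 1377–1408 FPKM in MIA PaCa-2 and from 1046–1069 to 838–910 FPKM in PATU8988T. Single epithelial markers differed more and in both directions. In the controls and the knockdown of PANC1, KRT19 averaged 178 and 89.2 FPKM and CLDN4 68.4 and 38.7 FPKM. KRT8 (420 and 504 FPKM), EPCAM (6.05 and 8.53 FPKM) and CDH1 (6.7 and 8.37 FPKM) were higher in the PANC1 knockdown. In MIA PaCa-2, CLDN4 averaged 6.48 and 17.6 FPKM and KRT8 947 and 554 FPKM. KRT19 averaged 0.00647 FPKM in the PATU8988T controls and was at 0 in the knockdown, and CDH1 was near 0 in MIA PaCa-2 (0.00175 and 0.0125 FPKM). The sum of 8 leukocyte markers, most of it CD68, went from 33.7–38.9 to 17.5–20.7 FPKM in PANC1, from 49.5–67.5 to 73.4–77.3 FPKM in MIA PaCa-2 and from 13.7–14.1 to 9.88–11.8 FPKM in PATU8988T, and the T-cell marker CD3E was at 0 in every library. PTPRC of the same list averaged 3.51 FPKM in the controls and 6 FPKM in the knockdown of MIA PaCa-2, and at most 0.0305 FPKM in any group of the other lines. The sum of 7 fibroblast markers went from 36.4–38.3 to 40.5–40.9 FPKM in PANC1, from 158–188 to 234–236 FPKM in MIA PaCa-2 and from 2.91–3.29 to 3.07–3.75 FPKM in PATU8988T. Among them COL3A1 averaged 6.37 FPKM in the controls and 30.1 FPKM in the knockdown of MIA PaCa-2, and 10.2 and 17.8 FPKM in PANC1, while DCN was at 0 in every library of PANC1 and PATU8988T. COL1A2 made up most of the sum in MIA PaCa-2 (162 and 205 FPKM). In PANC1, COL1A1 (26.1 and 22.3 FPKM) and THY1 (0.991 and 0.194 FPKM) were lower in the knockdown. The 5 endothelial markers summed to at most 0.318 FPKM in any library and the 5 hepatocyte markers to at most 2.18 FPKM, with 1.34–2.11 FPKM in the PANC1 controls and 1.31–2.18 FPKM in the PANC1 knockdown. The part of such cells or of a shift in these markers in the results was not tested.

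Promoter sequences are shown for CXCL8, CXCL1, IL6, NFKBIA and IL32, the 5 genes that were higher in every knockdown library than in any control library of MIA PaCa-2, and for LCN2, which was higher in every knockdown library of PANC1. They are the 180 bases before the gene's start in RefSeq on GRCh38.p14, from 5′ to 3′ on the gene's strand. Capitals mark matches to a kB motif of 10 letters or to the C/EBP motif TTGCNNAA, searched on both strands.
CXCL8, chr4:73740389-73740568, plus strand: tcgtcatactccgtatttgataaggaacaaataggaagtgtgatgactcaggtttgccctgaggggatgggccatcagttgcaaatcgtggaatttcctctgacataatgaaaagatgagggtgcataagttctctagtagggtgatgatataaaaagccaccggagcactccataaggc
CXCL1, chr4:73869213-73869392, plus strand: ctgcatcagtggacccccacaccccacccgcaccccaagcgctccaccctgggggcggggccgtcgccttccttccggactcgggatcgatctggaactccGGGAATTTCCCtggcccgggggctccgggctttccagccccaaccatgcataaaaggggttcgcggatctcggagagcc
IL6, chr7:22727020-22727199, plus strand: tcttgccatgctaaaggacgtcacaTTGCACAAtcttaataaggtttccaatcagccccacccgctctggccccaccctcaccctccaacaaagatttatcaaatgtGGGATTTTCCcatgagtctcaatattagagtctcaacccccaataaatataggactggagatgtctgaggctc
NFKBIA, chr14:35404750-35404929, minus strand: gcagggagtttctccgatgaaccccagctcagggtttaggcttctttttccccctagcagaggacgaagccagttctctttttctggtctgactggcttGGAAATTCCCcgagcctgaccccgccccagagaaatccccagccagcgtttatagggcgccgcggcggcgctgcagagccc
IL32, chr16:3065223-3065402, plus strand: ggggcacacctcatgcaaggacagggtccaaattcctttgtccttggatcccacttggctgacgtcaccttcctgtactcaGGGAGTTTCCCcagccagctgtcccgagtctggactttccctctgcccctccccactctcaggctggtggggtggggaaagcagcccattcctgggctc
LCN2, chr9:128149273-128149452, plus strand: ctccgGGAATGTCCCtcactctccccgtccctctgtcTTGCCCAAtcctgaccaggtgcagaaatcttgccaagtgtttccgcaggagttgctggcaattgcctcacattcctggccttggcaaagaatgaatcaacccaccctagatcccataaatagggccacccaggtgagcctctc

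A promoter window was found for 7 of the 10 genes, those above and CCL20. IL32 has 2 windows, of which the first is shown and the other held no match. In the 250 bases before the start, a kB match was present in 6 of the 7 genes (LCN2, IL32, CXCL1, CCL20, IL6 and NFKBIA), and in 9.96% of 35116 windows of the same length over all genes. In IL32 and CXCL1 the matches on both strands overlapped each other by all but 1 base and amount to 1 site. The C/EBP motif was found in 2 of the 7 genes, LCN2 and IL6, and in 9.05% of all windows. The kB matches of CXCL1, CCL20, IL6, NFKBIA and IL32 began between positions -99 and -73 from the start, and that of LCN2 at position -175. A match is a description of the letters, and binding was not measured. The genes were gathered as acute-phase and NF-kB genes, and a count per gene stands beside a share per window, so the comparison is not a test. The search asked for a fit at every letter of the motif, so a gene without a match, such as CXCL8, may still hold a kB site.

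**Figure D1:**
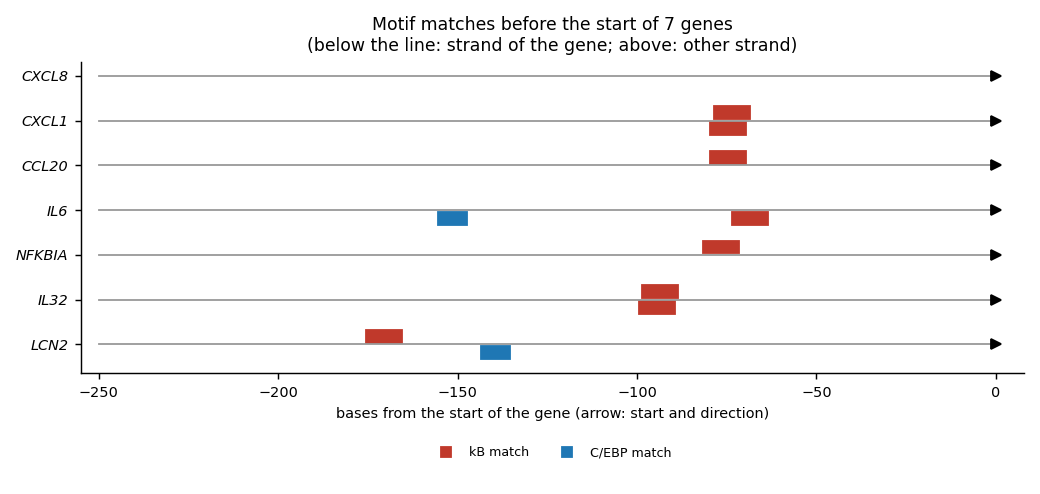
Matches to the kB motif (red) and the C/EBP motif (blue) in the 250 bases before the start of 7 genes, with the distance from the start in bases on the x axis and 1 gene per line. Boxes below a line lie on the strand of the gene and boxes above it on the other strand. Of the 7 genes, 6 hold a kB match, and in 5 of them it begins between positions -99 and -73.

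Among the secreted acute-phase and defence proteins, SAA1 and SLPI were below 0.5 FPKM in every PANC1 control and above 2 FPKM in every knockdown library. SAA1 (chr11:18266264-18269967, plus strand) encodes serum amyloid A1, a major acute-phase protein. It had 0.480, 0.234 and 0.151 FPKM in the PANC1 control libraries and 3.93, 3.81 and 3.17 FPKM in the knockdown libraries. These values rest on 18 reads in the 3 controls together and 209 reads in the 3 knockdown libraries. The log2 fold change was 3.35 (SE 0.266), or 10.2-fold on the scale of FPKM plus 0.1, and 1.85 with a pseudocount of 1. With means of 0.288 and 3.64 FPKM, SAA1 passed the filter of 1 FPKM in PANC1 through the knockdown libraries alone. Of the 626 words of 50 bases in the SAA1 transcript, 54.2% also occur in its close copy SAA2, so reads could be divided between both genes. SAA2 itself had 0.0586, 0.114 and 0.135 FPKM in the controls and 0.441, 0.413 and 0.356 FPKM in the knockdown libraries, on 26 and 95 reads. SAA1 was listed at 0 in all 6 MIA PaCa-2 libraries and was not analysed there. In PATU8988T, the controls had 1.34, 1.19 and 0.893 FPKM of SAA1 and the knockdown libraries 0.611, 0.996 and 0.579 FPKM, so the groups overlapped and the order of the means was opposite to that in PANC1.

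SLPI (chr20:45252239-45254564, minus strand) encodes a secreted inhibitor of leukocyte proteases made by mucosal epithelia. The PANC1 controls had 0.0932, 0.499 and 0.195 FPKM and the knockdown libraries 2.32, 3.8 and 3.28 FPKM, on 17 and 186 reads. Every knockdown library was above every control, with a log2 fold change of 3.29 (SE 0.358) that came to 1.71 with a pseudocount of 1. SLPI also passed the filter in PANC1 through the knockdown libraries alone (means of 0.263 and 3.13 FPKM). SLPI was listed at 0 in all 6 MIA PaCa-2 libraries. In PATU8988T it was already present in the controls, at 3.91, 3.00 and 2.08 FPKM, and reached 5.96, 6.96 and 5.82 FPKM in the knockdown libraries. Of the 10 genes, SLPI alone was higher without overlap in both PANC1 and PATU8988T.

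LCN2 (chr9:128149453-128153453, plus strand) encodes lipocalin 2, which withholds iron from bacteria by binding their siderophores. It had 17.4, 18 and 16 FPKM in the PANC1 controls and 28.2, 29.5 and 30.8 FPKM in the knockdown libraries. The groups did not overlap, with a log2 fold change of 0.78 (SE 0.0521), below the 2-fold limit. Its level was under 0.3 FPKM in every library of MIA PaCa-2 and PATU8988T, on 8 to 13 reads per group, and the groups overlapped in both lines.

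C3 (chr19:6677704-6720650, minus strand), the central component of complement, was lower in the knockdown libraries than in every control of all 3 lines. The PANC1 controls had 10.2, 10.7 and 9.69 FPKM and the knockdown libraries 2.17, 2.49 and 2.50 FPKM, a log2 fold change of -2.05 (SE 0.0766), or 4.14-fold lower. In MIA PaCa-2 the levels were 0.215, 0.298 and 0.333 FPKM in the controls and 0.182, 0.0956 and 0.170 FPKM in the knockdown, on 174 and 90 reads. In PATU8988T they were 0.0776, 0.0813 and 0.0929 FPKM against 0.0570, 0.0385 and 0.0316 FPKM, on only 48 and 24 reads. C3 thus had the opposite order to SAA1 in PANC1, although both are acute-phase genes.

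Of the chemokines, CXCL8 showed the largest difference in level in MIA PaCa-2. CXCL8 (chr4:73740569-73743716, plus strand) encodes interleukin 8, which draws neutrophils. It had 9.35, 5.64 and 9.04 FPKM in the MIA PaCa-2 controls and 47.5, 49.5 and 45.7 FPKM in the knockdown libraries, a log2 fold change of 2.59 (SE 0.194), or 6.02-fold. Without control replicate 2, the lowest of the controls, it was 2.36. In PANC1 the controls had 6.53, 5.78 and 5.83 FPKM and the knockdown libraries 7.99, 6.17 and 6.82 FPKM, which overlapped. CXCL8 was under 0.3 FPKM in every PATU8988T library.

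CXCL1 (chr4:73869393-73871308, plus strand), a neutrophil chemokine that shares the receptor CXCR2 with CXCL8, differed in opposite directions in PANC1 and MIA PaCa-2. The PANC1 controls had 58.4, 57.4 and 51.7 FPKM and the knockdown libraries 38.8, 38.2 and 37.3 FPKM, a log2 fold change of -0.55 (SE 0.0453). The MIA PaCa-2 controls had 16.1, 12.7 and 15.5 FPKM and the knockdown libraries 19.0, 22.2 and 20.5 FPKM, a log2 fold change of 0.48 (SE 0.118), or 0.38 without control replicate 2. In both lines the groups did not overlap. CXCL1 averaged 0.760 ± 0.219 FPKM in the PATU8988T controls and 0.673 ± 0.140 FPKM in the knockdown (SD, n = 3 each). The CXCL1 gene was counted over the same length in all 3 lines, so these levels may be set side by side per length, with the highest level in PANC1 and the lowest in PATU8988T. Of the words of 50 bases in the CXCL1 transcript, 5.73% are shared with CXCL2 and 0.573% with CXCL3.

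CCL20 (chr2:227813842-227817556, plus strand), which draws CCR6-bearing lymphocytes and dendritic cells, was low throughout. It averaged 0.821 ± 0.260 FPKM in the PANC1 controls and 1.09 ± 0.484 FPKM in the knockdown (SD, n = 3 each), and the groups overlapped there. In MIA PaCa-2 it had no read in the controls and 1 read in the knockdown, and in PATU8988T it had 30 and 27 reads.

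IL32 (chr16:3065403-3069530, plus strand), a cytokine that induces other inflammatory cytokines, was nearly absent from the MIA PaCa-2 controls. These had 0.0396, 0.0195 and 0.119 FPKM, on 9 reads in all, whereas the knockdown libraries had 2.46, 1.76 and 1.62 FPKM, on 289 reads. The log2 fold change was 3.71 (SE 0.274), or 13.1-fold, and its size depended on the pseudocount, from 1.47 with 1 to 5.07 with 0.01. With a mean of 1.94 FPKM in the knockdown and 0.0594 FPKM in the controls, IL32 passed the filter of 1 FPKM through the knockdown libraries alone. In PANC1 it had 6.50, 8.62 and 6.40 FPKM in the controls and 9.08, 9.23 and 9.16 FPKM in the knockdown libraries, with a log2 fold change of 0.36 (SE 0.101). PATU8988T expressed IL32 at 74.9, 71.1 and 76.4 FPKM in the controls and 79.3, 80.2 and 70.7 FPKM in the knockdown, with overlapping groups. The length used for IL32 was 932 bases in PANC1 and 1289 bases in the other lines.

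IL6 (chr7:22727200-22731998, plus strand), the cytokine that drives the acute-phase response through STAT3, stayed below 0.4 FPKM in all libraries. In MIA PaCa-2 it had 0.0334, 0.0410 and 0.0167 FPKM in the controls and 0.311, 0.258 and 0.171 FPKM in the knockdown libraries. These rest on 11 and 87 reads, and no knockdown library overlapped the controls. In PANC1 the controls held 11, 13 and 0 reads and the knockdown libraries 3, 9 and 0 reads. PATU8988T held 7 and 6 reads of IL6 in all.

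NFKBIA (chr14:35401513-35404749, minus strand) encodes IkB-alpha, the inhibitor that NF-kB itself induces, and it was well expressed in every library. The PANC1 controls had 59.3, 62.1 and 58.7 FPKM and the knockdown libraries 52.9, 52.8 and 54.4 FPKM, a log2 fold change of -0.17 (SE 0.0311). The MIA PaCa-2 controls had 39.2, 43.7 and 38.2 FPKM and the knockdown libraries 52.4, 53.6 and 55.5 FPKM, a log2 fold change of 0.42 (SE 0.0786). The groups did not overlap in either line, and the order was lower in PANC1 and higher in MIA PaCa-2. PATU8988T had 56.4, 59.7 and 56.8 FPKM in the controls and 65.2, 67.6 and 62.1 FPKM in the knockdown. NFKBIA was counted over 1559 bases in all 3 lines, and its control level was lowest in MIA PaCa-2, with PANC1 and PATU8988T overlapping.

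**Figure D2:**
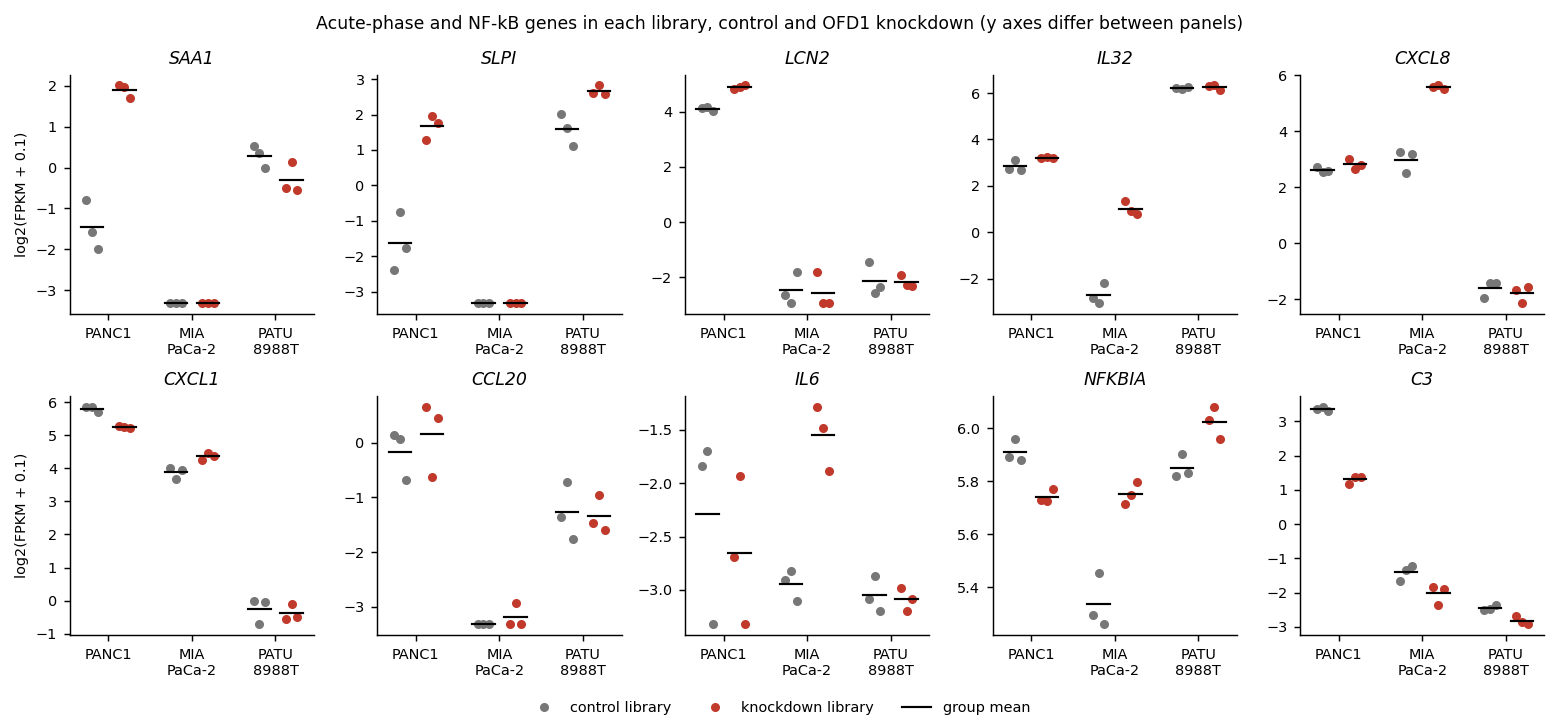
Level of the 10 genes in each of the 18 libraries as log2 of FPKM plus 0.1 (y axis, different in each panel), by cell line (x axis), with gray points for control libraries, red points for knockdown libraries and black bars for group means. SAA1 and SLPI lie higher in the PANC1 knockdown, IL32 and CXCL8 in the MIA PaCa-2 knockdown, and C3 lies lower in the knockdown of all 3 lines.

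By libraries that did not overlap, 4 of the 10 genes were higher (SAA1, SLPI, LCN2 and IL32) and 3 lower (CXCL1, NFKBIA and C3) in the PANC1 knockdown, where 32.9% of all genes above 0 were higher in this sense and 25.5% lower. In MIA PaCa-2, 5 genes were higher (IL32, CXCL8, CXCL1, IL6 and NFKBIA) and C3 was lower, against 22.5% and 19.3% of all genes above 0, while LCN2 and CCL20 overlapped. In PATU8988T, SLPI and NFKBIA were higher and C3 lower, against 16.4% and 17.1%, and the other 7 genes overlapped. The orders in PANC1 and MIA PaCa-2 belong to contrasts that were used to pick the genes.

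**Figure D3:**
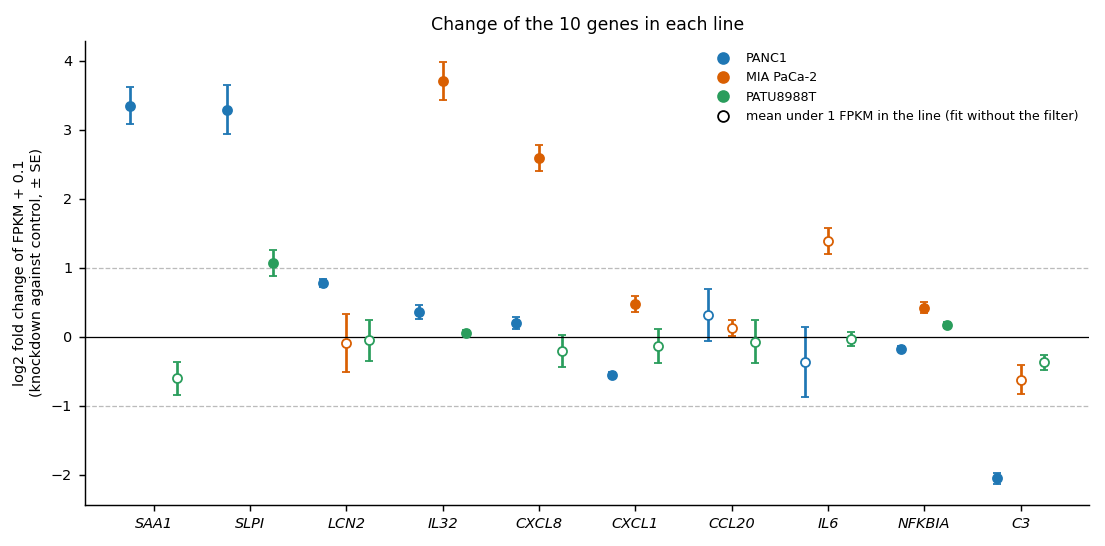
Log2 fold change of FPKM plus 0.1, knockdown against control, with the standard error from limma (y axis) for the 10 genes (x axis) in PANC1 (blue), MIA PaCa-2 (orange) and PATU8988T (green). Open circles are genes with a mean under 1 FPKM in that line, dashed lines mark a 2-fold difference, and SAA1 and SLPI have no value in MIA PaCa-2. The values run from -2.05 for C3 in PANC1 to 3.71 for IL32 in MIA PaCa-2.

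PATU8988T allowed a test of these genes in a line that was not used to pick them. SLPI rose there, with a log2 fold change of 1.07 (SE 0.182, limma, adjusted p = 0.00166, from 0.000554 to 0.0172 over the alternatives) and higher values in 3 of 3 knockdown libraries. Without control replicate 3 the log2 fold change of SLPI was 0.84, and without knockdown replicate 2 it was 0.99, both short of the 2-fold limit, as it was with a pseudocount of 1 (0.88). NFKBIA differed by 0.17 on the log2 scale (SE 0.0429, adjusted p = 0.0116, from 0.00845 to 0.0494 over the alternatives), past the adjusted p but far below 2-fold. IL32 had a log2 fold change of 0.05 (SE 0.0529, adjusted p = 0.49, from 0.121 to 0.84). Thus 1 of the 3 genes that passed the filter was higher past the threshold, beside 0.159% of the 10698 genes tested, and 2 of 3 had an adjusted p below 0.05, beside 39.4%. In the fit without a filter, the other 7 genes were not past the threshold, with adjusted p-values from 0.0529 for C3 (log2 fold change -0.37, SE 0.103) and 0.146 for SAA1 (-0.60, SE 0.238) to 0.934 for LCN2. In that fit 1.10% of 21498 genes were past the threshold. The exact two-sided permutation test gave p = 0.1 for SLPI, NFKBIA and C3, the smallest value that 3 libraries against 3 allow, 0.2 for SAA1 and 0.6 for IL32.

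The wider pathway was read from 10 lists with 214 genes other than these 10. The lists were written from general knowledge, with earlier results of the data known. In PANC1, 118 of the 214 genes passed the filter, of which 11 rose and 8 fell past the threshold (9.32% and 6.78%, beside 1.75% and 4.84% of all genes tested). In MIA PaCa-2, 14 rose and 2 fell of 110 tested (12.7% and 1.82%, beside 4.07% and 3.68% of all genes). In PATU8988T, 2 of 99 fell (2.02%, beside 0.841% of all genes) and none rose past the threshold in limma or voom. By the adjusted p alone, 20 were higher and 29 lower there, where 39.4% of all 10698 genes passed in either direction. An unadjusted p below 0.05 was found for 56 of the 99. The share of all genes at that limit is not given, so this count and later ones of its kind are not a result about the listed genes. Over the listed genes, MIA PaCa-2 had a median log2 fold change of 0.23 (all genes tested: -0.03), PANC1 one of 0.00 (all genes: 0.06) and PATU8988T one of -0.03 (all genes: 0.03). Of the rises, 4 in PANC1 (PTGS2, CXCL3, SOCS1 and CAMP) and 3 in MIA PaCa-2 (CXCL2, TNFSF15 and CP) had a control mean under 1 FPKM and passed the filter through the knockdown libraries alone, and 1 fall in MIA PaCa-2 (C1S) did so through the controls. A gene that passes in this way has to differ between the groups, so the counts, shares and medians of listed genes are descriptions. No adjusted p is printed for such a gene in that line. With a pseudocount of 1, the change was short of 2-fold for CXCL3, SOCS1, SOCS2, CFD and CAMP in PANC1, for REL, CXCL6, CEBPD and C1S in MIA PaCa-2, and for ICAM1 and MUC1 in PATU8988T.

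The genes around NFKBIA in the pathway, 10 NF-kB subunits and other IkB proteins and 23 kinases and adaptors, were above the filter in all 3 lines. In MIA PaCa-2, where NFKBIA, CXCL8, CXCL1 and IL32 were higher, 2 subunits and 1 adaptor rose past the threshold. These were NFKB2, the precursor of the p52 subunit (log2 fold change 1.32, SE 0.140, adjusted p = 0.000845), IRAK2, which relays signals of the interleukin 1 and Toll-like receptors (2.82, SE 0.144, adjusted p = 0.000156), and REL (1.03, SE 0.314, adjusted p = 0.0389). The call of REL was lost without control replicate 2, where its log2 fold change was 0.66, and without any one of the knockdown libraries, and its adjusted p reached 0.124. These rises were 20% of the first list and 4.35% of the kinases and adaptors, beside 4.07% of all genes tested. By the adjusted p alone, 3 kinases and adaptors were higher and 5 lower, but the share of all genes at that limit is not given for this line. Among the lower ones was RIPK1 (-0.98, SE 0.108, adjusted p = 0.000953), which passed the threshold with voom. In PANC1 and PATU8988T, none of these 33 genes passed in limma or voom, with 23 and 15 at an unadjusted p below 0.05.

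Feedback inhibitors and survival targets of NF-kB, a group like NFKBIA itself, went both ways in PANC1, where 1 rose and 3 fell of 20 tested. PTGS2, the inducible cyclooxygenase, rose from 0.665 to 2.70 FPKM (log2 fold change 1.87, SE 0.129) and so passed the filter through the knockdown alone, and the urokinase PLAU (-1.77, SE 0.0346), the adhesion molecule ICAM1 (-1.73, SE 0.0332) and TNIP1, which helps A20 restrain the pathway (-1.19, SE 0.0361), fell. In MIA PaCa-2, 3 of 17 rose, the adaptor TRAF1 (2.55, SE 0.175), the apoptosis inhibitor BIRC3 (2.0, SE 0.228) and PLAU (1.33, SE 0.0721). In PATU8988T, ICAM1 was the 1 of 16 past the threshold and fell (-1.28, SE 0.122). Apart from PTGS2, the highest adjusted p among them was 0.00109, for BIRC3.

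Beside CXCL8, CXCL1 and CCL20, 7 other chemokines were tested in PANC1, of which CXCL3 (from 0.731 to 2.17 FPKM, log2 fold change 1.44, SE 0.215) and CCL5 (1.12, SE 0.113) rose and CX3CL1 fell (-1.07, SE 0.0477). The adjusted p-values of CCL5 and CX3CL1 were up to 1.03e-05. In MIA PaCa-2, 2 of 7 rose, CXCL2 (from 0.905 to 3.71 FPKM, 1.92, SE 0.153) and CXCL6 (1.39, SE 0.143, adjusted p = 0.000772). CXCL2, the copy of CXCL1, had the same order as CXCL1 in these lines, with 8.72, 7.62 and 7.87 FPKM in the PANC1 controls and 6.82, 6.56 and 6.12 FPKM in the knockdown libraries (log2 fold change -0.31, SE 0.0687, adjusted p = 0.00244). Of the cytokines other than IL6 and IL32, TNFSF15 of the TNF family rose in MIA PaCa-2 from 0.512 to 7.43 FPKM (3.66, SE 0.207) and CLCF1 of the IL6 family fell (-1.22, SE 0.113, adjusted p = 0.000553). None of the 6 cytokines tested in PANC1, the 7 in PATU8988T or the 17 receptors tested in each line passed in limma or voom. At an unadjusted p below 0.05 there were 3 cytokines in PANC1, 6 in PATU8988T, and 12, 10 and 8 receptors in the order PANC1, MIA PaCa-2, PATU8988T. Of 2 chemokines tested in PATU8988T neither passed in limma or voom, and both had an unadjusted p below 0.05.

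In the STAT3 and C/EBP arm, which acts on SAA1 and the other acute-phase genes, CEBPD, a C/EBP factor induced in the acute phase, rose in PANC1 (log2 fold change 1.28, SE 0.0587, adjusted p = 3.03e-08) and in MIA PaCa-2 (1.30, SE 0.199, adjusted p = 0.00314), where it was the 1 of 16 genes past the threshold. In PANC1, SOCS1 (from 0.686 to 1.99 FPKM, 1.35, SE 0.239) and SOCS2 (1.01, SE 0.0526) also rose and FOSL1 fell (-1.81, SE 0.0727), so that 4 of 15 genes were past the threshold, and SOCS2 was short of it without control replicate 1 (0.99) or knockdown replicate 1 (0.98). None of 15 passed in PATU8988T in limma or voom, with 10 at an unadjusted p below 0.05. CEBPD was higher there too, but short of 2-fold (0.48, SE 0.0411, limma, adjusted p = 3.31e-05). By the adjusted p alone, 5 of these 15 genes were higher and 4 lower, beside 39.4% of all genes in either direction. Most other acute-phase proteins were too low to test, with 2 of 21 above the filter in MIA PaCa-2, 3 in PANC1 and 0 in PATU8988T. Ceruloplasmin (CP) rose in PANC1 (1.06, SE 0.0265) and in MIA PaCa-2, there from 0.501 to 2.58 FPKM (2.18, SE 0.217), and the antichymotrypsin SERPINA3 fell in PANC1 (-1.16, SE 0.0356), so acute-phase genes in PANC1 were mixed in direction, as SAA1 and C3 were.

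Among the other complement genes, the regulator CD46 fell in PANC1 (log2 fold change -1.37, SE 0.0468). CFD, the protease that activates the alternative pathway, also fell there, by 1.02 on the log2 scale (SE 0.119) and was short of 2-fold without control replicate 1 (-0.96) or 3 or without knockdown replicate 1 (-0.99) or 3 (-0.93). In MIA PaCa-2, C7 rose (1.34, SE 0.0824) and C1S fell from 1.70 to 0.576 FPKM (-1.42, SE 0.145), out of 9 tested. None of 5 passed in PATU8988T in limma or voom, with 4 at an unadjusted p below 0.05. Epithelial antimicrobial and antiprotease genes, the group of SLPI and LCN2 by function, rose in 3 of 10 tested genes in PANC1, namely TFF1 (2.04, SE 0.154), S100P (1.30, SE 0.0912) and CAMP (from 0.663 to 1.79 FPKM, 1.30, SE 0.165), and in 2 of 4 in MIA PaCa-2, S100P (1.42, SE 0.120) and MUC1 (2.16, SE 0.118). In PATU8988T, MUC1 fell (-1.06, SE 0.0948), short of 2-fold without control replicate 2 (-0.99) or knockdown replicate 3 (-0.98). Apart from C1S and CAMP, the highest adjusted p of the changes named in this paragraph was 0.00041, for S100P in MIA PaCa-2.

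**Figure D4:**
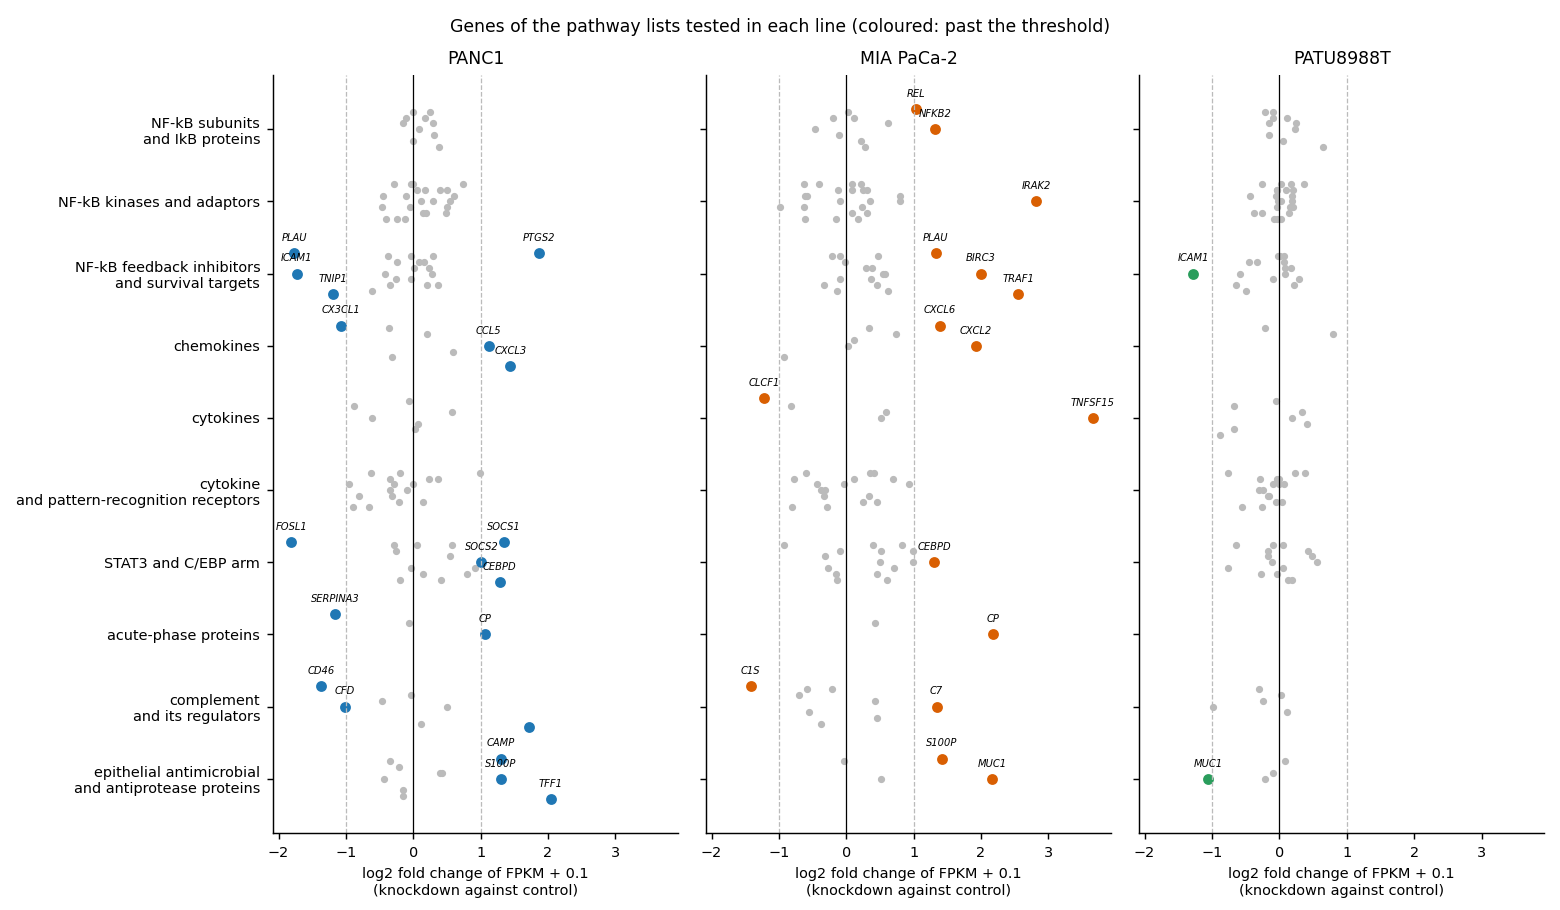
Log2 fold change of FPKM plus 0.1, knockdown against control (x axis), for the listed genes with a mean of at least 1 FPKM in PANC1, MIA PaCa-2 and PATU8988T, by list (y axis). Coloured points are past the threshold and named except for 1, gray points are not, and dashed lines mark a 2-fold change. In MIA PaCa-2 14 genes lie above and 2 below, in PANC1 11 above and 8 below, and in PATU8988T 2 below.

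Whether the change of a listed gene differed between lines was tested as an interaction over all 18 libraries, for 87 listed genes with a mean of at least 1 FPKM in each line. Between PANC1 and MIA PaCa-2, 13 genes differed past the threshold (14.9%, beside 4.45% of all 9083 genes tested), and the change in PANC1 was the lower in 12 of them. The largest difference was that of PLAU, whose log2 fold change was lower by 3.10 in PANC1 than in MIA PaCa-2 (SE 0.0566, adjusted p = 2.34e-15). MUC1 followed with a difference of -2.59 (SE 0.139), IRAK2 with -2.35 (SE 0.139) and CXCL2 with -2.22 (SE 0.151). CXCL2 passed the filter in MIA PaCa-2 through the knockdown libraries alone. Between PANC1 and PATU8988T, 6 genes differed (6.9%, beside 4.32%), led by FOSL2, an AP-1 subunit whose change was higher in PANC1 by 1.19 (SE 0.0706, adjusted p = 6.85e-09), PLAU with -1.18 (SE 0.0566), CXCL2 with -1.10 (SE 0.151) and CD46 with -1.06 (SE 0.155). Between MIA PaCa-2 and PATU8988T, 16 genes differed (18.4%, beside 8.48%), with a higher change in MIA PaCa-2 in 13. MUC1 differed by 3.22 (SE 0.139, adjusted p = 6.93e-11), IRAK2 by 3.08 (SE 0.139), BIRC3 by 2.33 (SE 0.232) and PLAU by 1.92 (SE 0.0566). Each line enters 2 of these pairs, so the pairs are not independent of each other. The interaction fit used a common spread over all 18 libraries. The MIA PaCa-2 controls varied more, with median absolute log2 differences of 0.199 to 0.393, against at most 0.0925 in the other groups. For PLAU, the interaction SE of 0.0566 was below its SE of 0.0721 in MIA PaCa-2 alone. The SEs and adjusted p-values may thus be too small for pairs with MIA PaCa-2 and too large for PANC1 against PATU8988T.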

How the data were processed

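RNA-seq libraries of 3 lines were analysed, with 3 control and 3 knockdown libraries each, grouped by the sample labels. According to the study's methods, the authors aligned reads with HISAT2, counted them with HTSeq-count and computed FPKM. The authors deposited FPKM values, already scaled by gene length and library reads. Per the labels, the genome builds named are hg38, mm10 and GRCm38 without their roles. The annotation, the versions and the strand setting of the counting are not given in the sources used here, so reads of overlapping antisense genes cannot be told apart. The labels name an RNeasy and a SMARTer kit, and the methods name TRIzol and another library kit.

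Read counts per gene were recovered from the FPKM values, and 100% of the values above 0 came out whole within a tolerance of 0.02. Gene lengths were chosen so that the values came out whole, so this share is not an independent check of the counts. Gene lengths differed between PANC1 and the other lines for some genes. Within each line, genes with a mean of at least 1 FPKM over its 6 libraries were fitted with limma 3.58.1 (R 4.3.3) on log2(FPKM + 0.1), with lmFit and eBayes with a trend, and p-values were adjusted by Benjamini-Hochberg over all genes fitted in that line. Genes were called at an adjusted p under 0.05 with a change of more than 2-fold up or down, and fold changes are on the log2(FPKM + 0.1) scale, which understates those of low genes. Differences between lines were tested with interaction terms over the 18 libraries, at the same adjusted p and a difference above 1 on the log2 scale. Standard errors are limma's. The procedure was tested on simulated data with the same spread in every library and planted changes well above 2-fold. That test does not cover the wider spread of the MIA PaCa-2 controls or changes near 2-fold. Positions and promoters came from RefSeq on GRCh38.p14, and words shared between transcripts from the GENCODE GRCh38 transcripts.

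The 10 genes and the lists were chosen with earlier results of these data known. The genes named were the 10 genes in every line, OFD1, the close copies SAA2, CXCL2 and CXCL3, the 4 largest changes past the threshold per list and line, and the 4 largest differences per pair of lines. Cell type markers were named beside them, and 1 listed gene is counted but not reported here by name. Alternatives were other pseudocounts (1 and 0.01), filters (none, and at least 5 FPKM), quantile normalization, equal library medians, no trend, voom on the recovered reads, a replicate block, the adjusted p alone, and leaving out each library.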

Additional observations from a re-analysis of the deposited data

Results flagged for a closer look

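NFKBIA and CXCL1 had opposite orders in different lines, with every library of one line moving one way and every library of the other line the opposite way. NFKBIA had a log2 fold change of 0.42 in MIA PaCa-2, 0.17 in PATU8988T and -0.17 in PANC1, and that of CXCL1 was -0.55 in PANC1 and 0.48 in MIA PaCa-2. These differences between lines were not tested, because PANC1 and MIA PaCa-2 were used to pick the genes.

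The other results picked out here are listed genes whose change differed between lines by an interaction term. Between PANC1 and MIA PaCa-2, the log2 fold change was lower in PANC1 for PLAU (-3.10), MUC1 (-2.59), IRAK2 (-2.35), CXCL2 (-2.22), BIRC3 (-1.84), FOSL1 (-1.54), NFKB2 (-1.48), IL4R (-1.24), PIM1 (-1.23), LIF (-1.20), JUNB (-1.19) and TNIP1 (-1.05), and higher for CLCF1 (1.15). Between PANC1 and PATU8988T, it was higher in PANC1 for FOSL2 (1.19) and lower for PLAU (-1.18), CXCL2 (-1.10), CD46 (-1.06), FOSL1 (-1.06) and TNFRSF12A (-1.04). Between MIA PaCa-2 and PATU8988T, it was higher in MIA PaCa-2 for MUC1 (3.22), IRAK2 (3.08), BIRC3 (2.33), PLAU (1.92), JUNB (1.63), NFKB2 (1.48), LIF (1.27), REL (1.24), CD40 (1.18), PIM1 (1.15), CXCL2 (1.12), TNFAIP8 (1.10) and TLR6 (1.0), and lower for TNFRSF12A (-1.19), RIPK1 (-1.18) and CLCF1 (-1.17). CXCL2 in MIA PaCa-2 and TNFAIP8 in MIA PaCa-2 and PATU8988T passed the filter through a single group, so their differences are descriptions. PLAU, which has a fall in PANC1 and a rise in MIA PaCa-2, and MUC1, which has a rise in MIA PaCa-2 and a fall in PATU8988T, were past the threshold in both directions.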

How the results depend on the processing

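The settings that changed most were the pseudocount, the filter and the fold limit. With a pseudocount of 1, the log2 fold change of OFD1 was -0.86 in PANC1 and -0.68 in PATU8988T, and after quantile normalization it was -0.97 in PATU8988T, each short of 2-fold. With a pseudocount of 1, the listed genes past the threshold were 7 higher in PANC1, 0 lower in PATU8988T and 1 lower in MIA PaCa-2, and 10 differed between MIA PaCa-2 and PATU8988T, while 0 of the 10 genes were higher in PATU8988T. Without a filter, 22 listed genes were higher in PANC1 and 4 lower in PATU8988T, and 30, 21 and 35 differed between PANC1 and MIA PaCa-2, PANC1 and PATU8988T, and MIA PaCa-2 and PATU8988T. With a mean of at least 5 FPKM, 0 of the 10 genes were higher in PATU8988T, since fewer were tested. With that filter 6 listed genes were higher in MIA PaCa-2 and 6 in PANC1, 1 was lower in PATU8988T and 1 in MIA PaCa-2, and 8 differed between PANC1 and MIA PaCa-2 and 7 between MIA PaCa-2 and PATU8988T. With the adjusted p alone, 2 of the 10 genes were higher in PATU8988T. Counts of the 10 genes past the threshold in PANC1 and MIA PaCa-2 are not given, since those contrasts picked the genes. By the adjusted p alone, 34 listed genes were higher and 21 lower in MIA PaCa-2, 47 and 40 in PANC1, and 20 and 29 in PATU8988T. At that limit, 34, 36 and 47 differed between the lines in the order above. The share of all genes at that limit is given only for PATU8988T (39.4% in either direction). For most of the other settings no such share is given here. The counts of listed genes in this paragraph are therefore not a result about the listed genes. IL32 in PATU8988T, not past the threshold, had a log2 fold change of -0.02 after quantile normalization. Leaving out 1 library at a time gave OFD1 log2 fold changes from -1.13 to -0.99 in PANC1, 2 to 4 listed genes lower in MIA PaCa-2 (4 without control replicate 2), 1 to 3 lower in PATU8988T (1 without knockdown replicate 3) and 0 to 1 of the 10 genes higher in PATU8988T, where the lone call, SLPI, was lost without control replicate 3 or knockdown replicate 2.

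The replicate numbers did not pair the libraries, with correlations of same-numbered deviations from -0.111 to 0.13. With the replicate block, 192 genes were higher and 530 lower in PANC1, against 191 and 528 without it, and REL in MIA PaCa-2 had an adjusted p of 0.0524.

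Genes under about 20 reads per group, such as SAA1 and SLPI in the PANC1 controls, IL32 in the MIA PaCa-2 controls and IL6 in several groups, are limited by depth, so the size of their fold change depends on the pseudocount. For IL32 in MIA PaCa-2 it was 5.07 with voom on the recovered reads. Over all genes of PANC1, voom called 216 as higher and 557 as lower. For PATU8988T the voom counts were 20 and 102 (limma on FPKM: 17 and 90), and for MIA PaCa-2 they were 464 and 423 (limma on FPKM: 438 and 396).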

Other observations

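Some inflammatory genes under the filter of 1 FPKM had groups that did not overlap, and they were chosen after their values were seen. A2M, the plasma protease inhibitor alpha-2-macroglobulin, had 13 reads in the PANC1 controls and 157 reads in the knockdown libraries, that is, 0.0252 ± 0.0154 and 0.327 ± 0.110 FPKM (SD, n = 3 each). In MIA PaCa-2 it had 0.408 ± 0.0278 FPKM in the controls and 1.05 ± 0.112 FPKM in the knockdown, and it was listed at 0 in PATU8988T. CXCL3 in MIA PaCa-2 had 0.143, 0.0701 and 0.262 FPKM in the controls and 0.959, 0.930 and 0.680 FPKM in the knockdown libraries, on 20 and 106 reads.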
